A study of Homo sapiens with 18 samples.

Results

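The epidermal differentiation complex is a cluster of genes on human chromosome 1 whose products build the cornified envelope of the skin, with S100A genes at both of its ends. Its members were taken as every peak summit that fell between kb 151950 and kb 153650 of chromosome 1 (hg19), a window of 1.7 Mb, in any of the 13 deposited summit lists. There were 576 such summits, of 946841 on chromosomes 1 to 22 and X. Summits of all lists within 1 kb of each other were joined, which gave 135 sites.

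The lists came from chromatin immunoprecipitation followed by sequencing (ChIP-seq) of 3 histone marks in human lung adenocarcinoma lines under 4 conditions. The first was H2087-LCC given the cytokine TGF-β1 at 100 nM for 4 days, as the labels state (TGFb below). The second was H2087-LCC-SO1 (SO1), which the labels name without saying how it was made. The third was H2030, a separate line that was grown in a simpler medium, so that line and medium cannot be told apart. H2087-LCC without added cytokine (LCC), a latency-competent derivative of the line H2087, was the condition the other 3 were set against, and LCC, TGFb and SO1 cells all grew in a medium that already held epidermal growth factor, insulin and hydrocortisone. H3K27ac in LCC was measured in 2 biological replicates and everything else in a single library, so no p-value could be given and the LCC pair was the only measure of spread. The 5 input libraries were not analysed here.

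H3K4me3 is found at promoters in use, H3K4me1 at enhancers and beside promoters, and H3K27ac at promoters and enhancers that are active. In the skin, the complex is switched on as keratinocytes mature: profilaggrin and its relatives bind keratin filaments, and involucrin, loricrin, the late cornified envelope (LCE) proteins and the small proline-rich (SPRR) proteins are cross-linked into the envelope. The S100A proteins bind calcium, and several of them, among them S100A4, S100A6, S100A10 and S100A11, are made in many cell types outside the skin.

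In the RefSeq order of genes on chromosome 1 (GRCh38.p14), S100A10 and S100A11 come first, then the profilaggrin-like genes, the LCE genes, involucrin (IVL), the SPRR genes, loricrin (LORICRIN) and the peptidoglycan recognition genes PGLYRP3 and PGLYRP4. The S100A9 to S100A7 genes, then the S100A6 to S100A1 genes and last CHTOP, SNAPIN and ILF2 follow. That order is on another genome build than the summits, so no summit was assigned to a gene and the sites below are given by position alone. For the same reason markers of lung epithelium could not be placed among the summits, and the label of the cells was not checked against them.

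The promoters of these genes fell into 2 kinds by sequence. A promoter was taken as the 250 bases before to 50 bases after the start of a gene in RefSeq (GRCh38.p14), and 62 of the 66 coding genes from S100A10 to ILF2 had one (CRCT1, LCE1B, SPRR2D and SPRR2E had none in the table). The ratio of observed to expected CpG pairs was 0.84 for S100A10 and 0.78 for S100A11. Over the 43 promoters from TCHHL1 to PGLYRP4 its median was 0.12 and its highest value 0.25. It was 0.87 for S100A6, 0.85 for S100A13, 0.87 for CHTOP, 0.83 for SNAPIN and 0.87 for ILF2. The median of all 15841 coding promoters in the table was 0.76, so the promoters at or above it sat at the ends of the gene order and the middle held none of that kind. The upper end was mixed, since the other 12 of the 14 S100A promoters there had ratios of 0.05 to 0.29, like the middle.

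**Figure D1:**
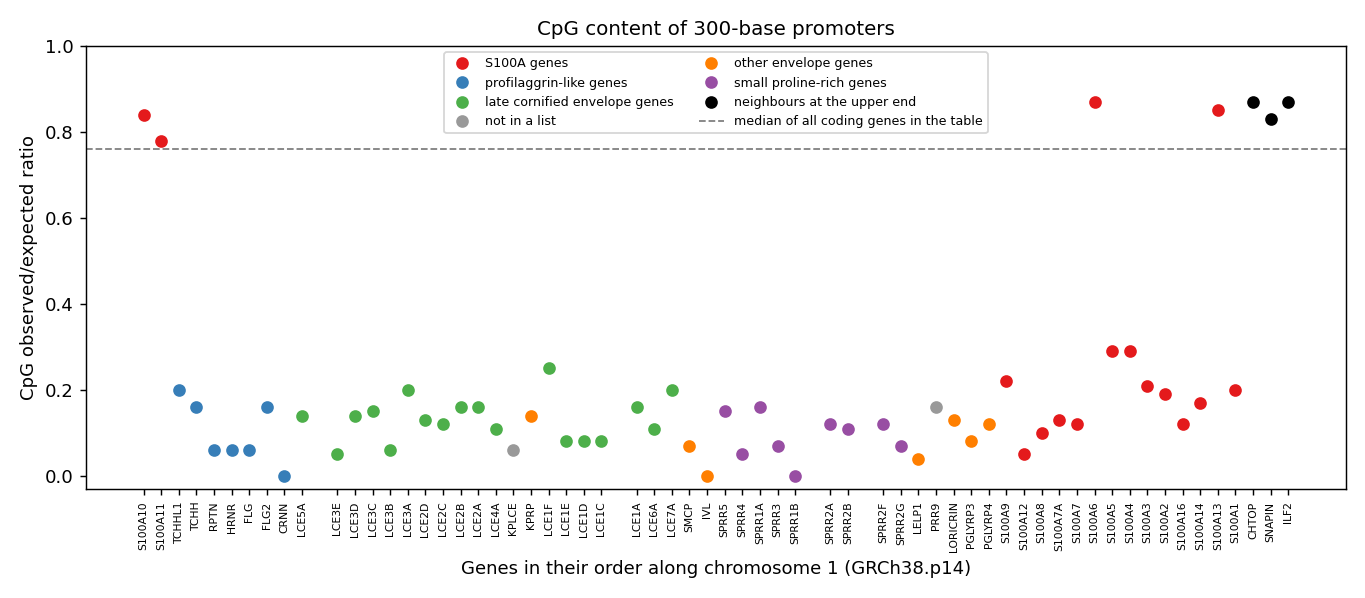
Ratio of observed to expected CpG pairs (y axis) in the 300-base promoter of each of 62 genes in their RefSeq order (x axis), coloured by gene list, with the median of all coding promoters as a dashed line at 0.76. S100A10 and S100A11 on the left and S100A6, S100A13, CHTOP, SNAPIN and ILF2 on the right lie above the line, and no gene from TCHHL1 to PGLYRP4 exceeds 0.25.

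The letters TATAAA, searched on both strands, stood in 48.4% of the 62 promoters and in 9.63% of all coding promoters. The AP-1 motif TGANTCA, which reads the same on both strands, stood in 30.6% and in 5.75%. It was found in 6 of 7 profilaggrin-like and 6 of 9 SPRR promoters but in 0 of 18 LCE promoters. GGGCGG, the GC box, stood in 19.4% of the 62 promoters, against 58.5% of all coding promoters, and in both S100A promoters of the lower end. These matches describe letters in a window and show no binding. The promoters of S100A10, of the envelope precursor gene SPRR1B and of ILF2, a subunit of a double-stranded RNA-binding complex, are shown. They come from the lower end, the middle and the upper end of the gene order and were chosen after their values were seen. SPRR1B and ILF2 are not typical of their parts. Of the promoters from TCHHL1 to PGLYRP4, 58.1% held TATAAA, which SPRR1B lacked, and 37.2% held the AP-1 motif, which it had. Most S100A promoters of the upper end had far lower CpG ratios than ILF2. The 3 promoters are printed from RefSeq (GRCh38.p14) on the strand of the gene, 5′ to 3′, with matches to GGGCGG and TGANTCA in capitals.
S100A10: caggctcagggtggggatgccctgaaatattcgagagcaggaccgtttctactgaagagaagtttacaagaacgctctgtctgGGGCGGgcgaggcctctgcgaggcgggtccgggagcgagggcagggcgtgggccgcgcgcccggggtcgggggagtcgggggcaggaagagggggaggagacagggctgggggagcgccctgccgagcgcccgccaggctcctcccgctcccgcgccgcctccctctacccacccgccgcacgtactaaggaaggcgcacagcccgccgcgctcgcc
SPRR1B: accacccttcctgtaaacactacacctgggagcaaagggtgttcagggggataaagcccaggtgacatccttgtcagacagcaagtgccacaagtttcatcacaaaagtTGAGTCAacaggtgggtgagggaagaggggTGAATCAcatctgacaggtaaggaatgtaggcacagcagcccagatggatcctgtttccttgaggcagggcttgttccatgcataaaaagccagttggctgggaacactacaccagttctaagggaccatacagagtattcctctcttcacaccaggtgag
ILF2: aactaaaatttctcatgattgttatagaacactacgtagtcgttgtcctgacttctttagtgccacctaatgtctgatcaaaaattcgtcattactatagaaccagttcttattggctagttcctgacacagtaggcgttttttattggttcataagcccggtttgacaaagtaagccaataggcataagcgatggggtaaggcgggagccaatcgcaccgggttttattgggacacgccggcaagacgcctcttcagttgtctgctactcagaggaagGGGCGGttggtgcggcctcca
S100A10 had 32 CpG pairs and 1 GC box, SPRR1B had 0 CpG pairs and 2 AP-1 matches, and ILF2 had 14 CpG pairs and 1 GC box.

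The window was not unusual in how many summits it held. H3K27ac gave 49 summits in TGFb, 36 in SO1 and 29 in H2030, against 30 and 43 in the 2 LCC replicates. H3K4me1 gave 87 in TGFb, 71 in SO1 and 73 in H2030, against 86 in LCC. H3K4me3 gave 18, 17 and 19 in TGFb, SO1 and H2030, against 18 in LCC. Of 1712 windows of the same length tiled over the genome, 49.2% to 71.9% held fewer summits, depending on the library. The LCC replicates of H3K27ac themselves differed by 13 summits, and the count of SO1 lay between them. The whole lists held 50663 to 68118 H3K27ac, 128146 to 143843 H3K4me1 and 25691 to 28889 H3K4me3 summits, and sequencing depth was unknown.

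Where in the window the summits lay was far from even. The first 100 kb and the last 200 kb, 17.6% of its length, held 61.2%, 75.0% and 82.8% of the H3K27ac summits in TGFb, SO1 and H2030, against 63.3% and 60.5% in the LCC replicates. The same stretches held 72.2%, 76.5% and 73.7% of the H3K4me3 summits of TGFb, SO1 and H2030, against 77.8% in LCC. For H3K4me1 the shares were 56.3%, 59.2% and 64.4% in TGFb, SO1 and H2030, against 57.0% in LCC. In every library the ends thus held more summits than the rest of the window, which is far longer. These stretches were outlined after the counts per 100 kb had been seen.

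**Figure D2:**
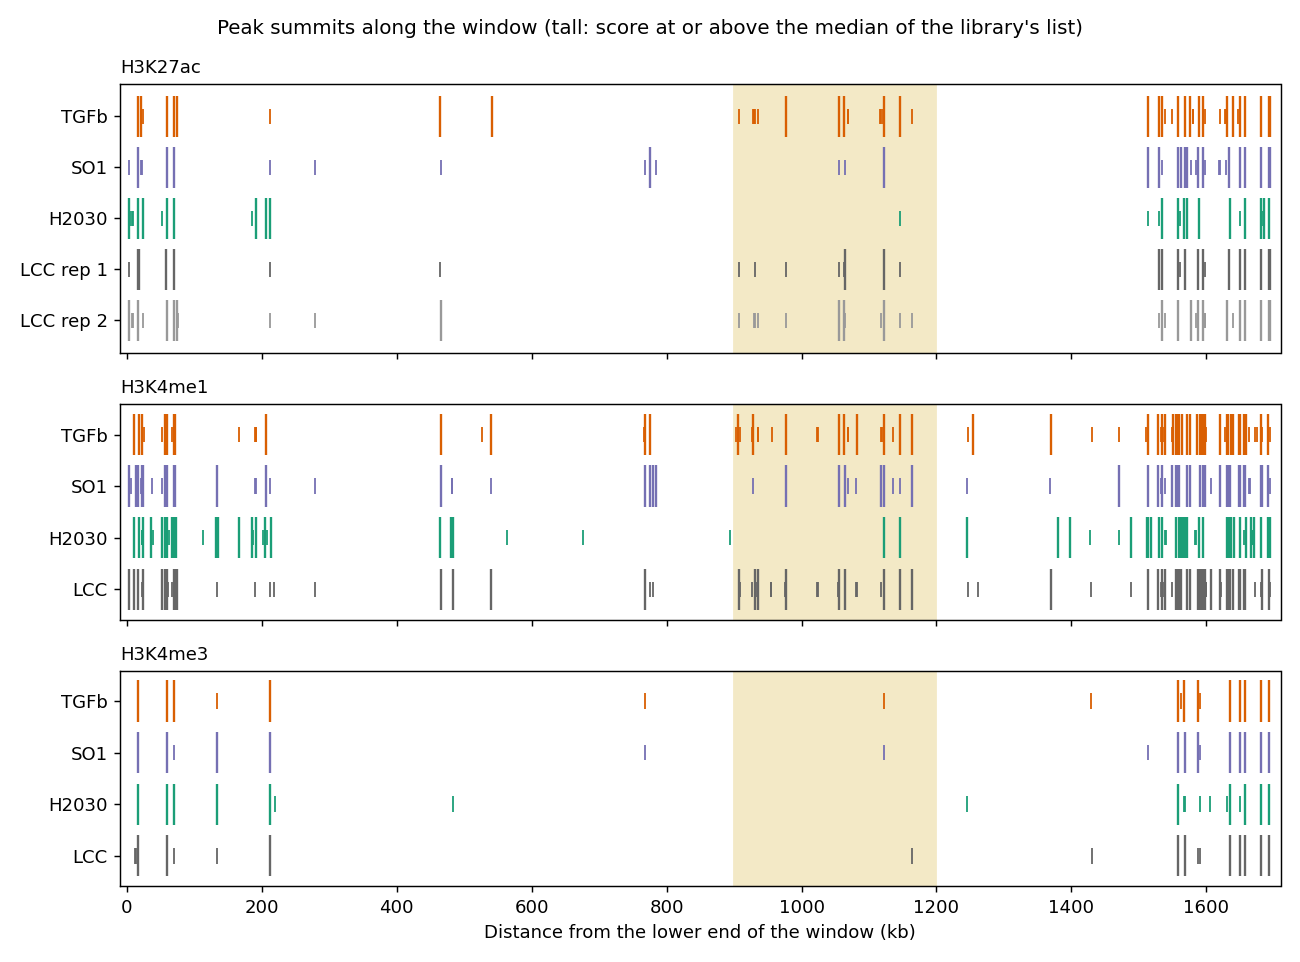
Position of each summit as distance from the lower end of the window (x axis, kb) for H3K27ac, H3K4me1 and H3K4me3, 1 row per library, with tall ticks for summits whose score reached the median of their own list and short ticks for the others. Ticks crowd the first 100 kb and the last 200 kb in every row, and within the shaded 900 to 1200 kb TGFb and LCC carry more H3K27ac summits than SO1 and H2030.

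Between the ends there were long stretches without a summit of any mark, or without a summit of a single mark. No summit of any of the 13 lists fell between 1:152228595 and 1:152413407, a length of 185 kb. H3K27ac was without a summit in every library from 1:153113848 to 1:153463453, a length of 350 kb. In H2030 alone the H3K27ac-free stretch ran from 1:152161526 to 1:153095920, a length of 934 kb. H3K4me3 was without a summit in every library from 1:152718018 to 1:153072124, a length of 354 kb. In the middle 1400 kb the H3K4me3 summits numbered 5 in TGFb, 4 in SO1 and 5 in H2030, against 4 in LCC.

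The score of a summit, as the authors deposited it, is on a −log10 scale of a p-value or a q-value, which of them is not stated. It rises with depth, so scores of different libraries are given side by side as a description, and no change in the amount of a mark is read from them. The median of a list is the level they can be held against, and a limit of 10, where used, falls at a different place in each list. Those medians were 20.9 in TGFb, 30.1 in SO1 and 15.5 in H2030 for H3K27ac, against 12.6 and 13.5 in the LCC replicates. They were 11.1, 15.8 and 8.44 for H3K4me1 in TGFb, SO1 and H2030, against 11.6 in LCC. They were 147, 183 and 247 for H3K4me3 in TGFb, SO1 and H2030, against 189 in LCC. Of the summits in the window, 46.5% (LCC H3K27ac replicate 2) to 70.6% (SO1 H3K4me3) reached that median.

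The highest summits of the window were nearly the same sites in all conditions. The site at 1:153605826-153606750 scored 523 for H3K27ac in TGFb, 530 in SO1 and 400 in H2030, against 323 and 496 in the LCC replicates. It was the highest of the window in SO1 and in both LCC replicates, number 2 in TGFb and number 4 in H2030. In LCC replicate 2 it was number 6 of all H3K27ac summits of the genome. At the lower end, the site at 1:151965710-151968097 scored 540, 395 and 379 for H3K27ac in TGFb, SO1 and H2030, against 138 and 370 in the LCC replicates. It was the highest H3K27ac site of the window in TGFb, number 42 of that list.

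Another such site, at 1:153507822-153509173, scored 465, 421 and 363 for H3K27ac in TGFb, SO1 and H2030, against 185 and 372 in LCC. Its H3K4me3 scores were 595, 564 and 497, against 549 in LCC. Each of these 3 sites, all at the ends of the window, carried all 3 marks in all 4 conditions. At 1:152019508-152020385, near the lower end, H3K27ac scored 409, 425 and 405 in TGFb, SO1 and H2030, against 176 and 177 in the LCC replicates, and all 3 marks were again found in all 4 conditions. At 1:152009087-152010705 it scored 395, 331 and 405, against 222 in LCC replicate 2, while in replicate 1 a summit of 132 lay just outside the site, at 1:152008052. H3K4me3 scored 547, 559 and 575 there in TGFb, SO1 and H2030, against 513 in LCC.

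At the upper end, the site at 1:153537426-153538891 was among the 3 highest of the window in all 5 H3K27ac lists and the highest in H2030. It scored 488, 464 and 416 in TGFb, SO1 and H2030, against 310 and 396 in the LCC replicates. Within its limits it did not carry all marks throughout: H3K4me3 was found in TGFb, SO1 and LCC but not in H2030, and H3K4me1 in H2030 and LCC but not in TGFb and SO1. These absences depend on how sites were joined, since such summits lay close outside it. They were H3K4me1 at 1:153536152 (77.8) and 1:153540055 (104) in TGFb and at 1:153540105 (130) in SO1. In H2030 an H3K4me3 summit lay at 1:153540947 (73.2).

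H3K27ac was found at 64 of the 135 sites (47.4%, against 43.0% of 216181 sites built the same way over the genome), and at 13 of these in all 4 conditions, 20.3% against 22.2% over the genome. It was found in TGFb and LCC alone at 10 sites, 15.6% with a Wilson 95% interval (counting error only) of 8.71% to 26.4%, against 6.52%. Of the 13 sites with H3K27ac in all 4 conditions, 3 lay in the first 100 kb and 9 in the last 200 kb. The one between them, at 1:152161484-152162784, scored 20.7, 13.3 and 133 in TGFb, SO1 and H2030, against 4.57 and 10.9 in the LCC replicates.

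H3K4me3 was the mark most often shared, in the window as over the genome. It was found at 27 sites, and at 13 of these in all 4 conditions, 48.1% against 43.7% over the genome, of which 3 lay in the first 100 kb and 8 in the last 200 kb. The other two were the site at 1:152161484 just named, with H3K4me3 scores of 322, 383 and 355 in TGFb, SO1 and H2030, against 334 in LCC, and the site at 1:152082345-152084183. The second scored 95.2, 183 and 359 in TGFb, SO1 and H2030, against 44.6 in LCC, and had no H3K27ac summit in any library. It was thus a site with H3K4me3 in every condition and H3K27ac in none. In LCC alone H3K4me3 was found at 3 sites, 11.1% with an interval of 3.85% to 28.1%, against 1.87% over the genome. Those sites scored only 9.09, 2.76 and 4.52, far below the LCC list median of 189. This pattern and that of H3K27ac in TGFb and LCC alone were picked from many combinations of conditions.

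H3K4me1 was the most spread mark, at 125 of the 135 sites. Of these, 27 carried it in all 4 conditions (21.6%, against 21.3% over the genome), 17 in the 3 H2087 conditions without H2030 (13.6%, against 14%), and 25 in H2030 alone (20.0%, against 20.1%). Each of these shares lay within counting error of the genome share. In the 1100 kb outside both ends and outside kb 152850 to 153150, 20 of 38 sites with H3K4me1 had it in 1 condition. That stretch was outlined after the counts had been seen. Over the genome, 20.1% of sites with H3K4me1 had it in H2030 alone, 7.89% in LCC alone, 6.65% in SO1 alone and 6.63% in TGFb alone. The highest H3K4me1 summits again lay at the upper end: 1:153540055 scored 104 in TGFb, 1:153521645 scored 172 in SO1 and 1:153538543 scored 112 in H2030, against 120 for 1:153521659 in LCC. The 5 highest H3K4me1 summits scored at least 61.9 in TGFb, 87.0 in SO1 and 76.4 in H2030, against 78.8 in LCC, and all of them lay at the ends of the window but 1, the SO1 summit at 1:153005995.

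In the middle, from kb 152850 to kb 153150, the number of summits differed between conditions. This stretch held 16 H3K27ac summits in TGFb, 3 in SO1 and 1 in H2030, against 9 and 13 in the LCC replicates. It held 22 H3K4me1 summits in TGFb, 12 in SO1 and 2 in H2030, against 21 in LCC. TGFb was thus above both LCC replicates, and SO1 and H2030 below both, by more than the difference between the replicates in the case of SO1 and H2030 but not of TGFb. H3K4me3 gave 1 summit in TGFb, 1 in SO1 and 0 in H2030, against 1 in LCC. With a score of at least 10 the H3K27ac counts were 9 in TGFb, 3 in SO1 and 0 in H2030, against 4 and 5 in LCC, so that SO1 then lay 1 summit below the lower replicate.

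By site, H3K27ac was found at 13 of the 24 sites of this stretch, at 13 in TGFb, 3 in SO1 and 1 in H2030, against 11 in LCC. At none was it found in all 4 conditions. H3K4me1 was found at 23 of the 24 sites, at 19 in TGFb, 11 in SO1 and 2 in H2030, against 19 in LCC. The stretch was outlined after its counts had been seen, and the same counts were not made for other stretches of the genome. Most of its H3K27ac summits in TGFb, SO1 and the LCC replicates scored below the median of their list, as did the only one of H2030. The size of a list also bears on the counts: the TGFb list was the longest. With all 5 H3K27ac lists reduced to the 50628 highest scores, the length of the shortest, the counts were 12 in TGFb, 3 in SO1 and 1 in H2030, against 9 and 11 in LCC.

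**Figure D3:**
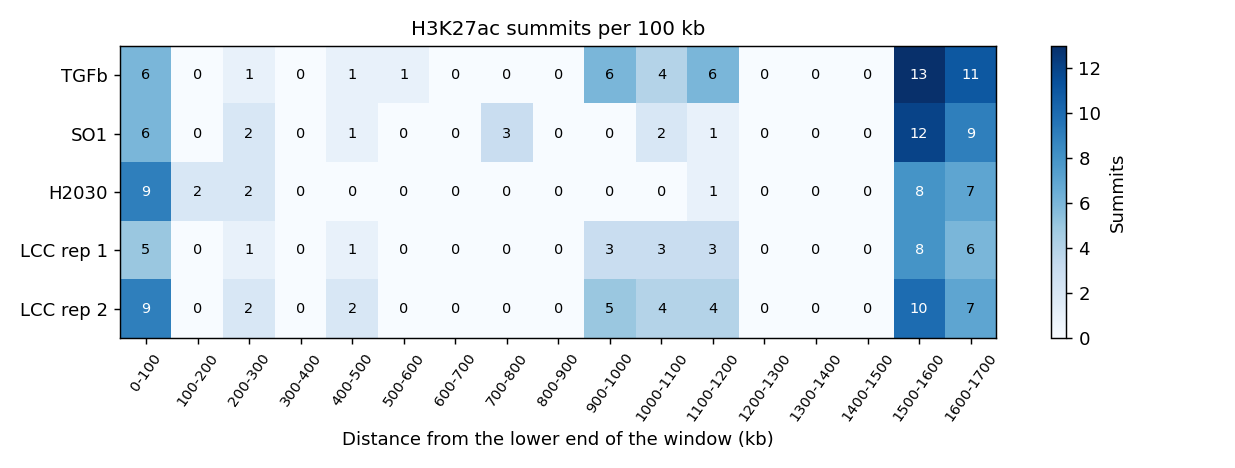
Number of H3K27ac summits in each 100 kb of the window (x axis, distance from its lower end in kb) in TGFb, SO1, H2030 and the LCC replicates (rows), with the number printed in each cell and shaded by it. From 900 to 1200 kb TGFb has 6, 4 and 6 summits and H2030 has 0, 0 and 1, and from 1200 to 1500 kb every library has 0.

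Of the sites in this stretch the one at 1:153071617-153072940 had the highest H3K27ac score in TGFb, SO1 and LCC replicate 2. Its H3K27ac score was 251 in TGFb and 281 in SO1, against 22 and 82.0 in the LCC replicates, and H2030 had no H3K27ac summit there. Its H3K4me1 score was 51.0, 74.7 and 16.3 in TGFb, SO1 and H2030, against 21.8 in LCC. H2030 therefore kept H3K4me1 at a site where it had no H3K27ac. The next site, at 1:153095318-153096095, scored 133 for H3K27ac in TGFb and 8.31 in H2030 and had no summit in SO1, against 12.4 and 11.1 in LCC. Every condition carried H3K4me1 at that site, with scores of 36.2, 8.38 and 21.7 in TGFb, SO1 and H2030, against 24.0 in LCC.

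Lower in the stretch, the site at 1:153004317-153006100 scored 29.1 for H3K27ac in TGFb and 28.2 in SO1, against 4.93 and 19.7 in LCC. The site at 1:153013389-153015156 scored 32.2 in TGFb and 13.9 in SO1, against 22.7 and 30.3 in LCC. At both H2030 had neither H3K27ac nor H3K4me1, and the 3 H2087 conditions had both. Farther down, at 1:152926487-152927547, H3K27ac scored 34.3 in TGFb, against 3.16 and 7.02 in LCC. SO1 had an H3K4me1 summit of 18.6 and no H3K27ac there, and H2030 had neither.

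New and lost summits were few, and for H3K27ac their number depended on the LCC replicate used. A summit was called new where it reached the median score of its list and LCC had no summit of that mark within 5 kb in either replicate, and lost where an LCC summit of that score (for H3K27ac, one of replicate 1 with a replicate 2 summit within 500 bp) had none within 5 kb in the other condition. In TGFb, 2 of 27 H3K27ac summits were new, against 5.49% of all such summits of the genome, and 0 of 13 LCC summits were lost, against 2.13%. In SO1, 2 of 19 were new, against 5.05%, and 0 of 13 were lost, against 5.26%. In H2030, 2 of 18 were new, against 20.0%, and 2 of 13 were lost, against 26.7%. Between the LCC replicates, 1 of 20 replicate 2 summits had none in replicate 1, against 4.41%, and 1 of 18 replicate 1 summits had none in replicate 2, against 1.14%. The Wilson 95% interval of each of these window shares, which covers counting error only, held the genome share. At these numbers the window could not be told from the genome. With 1 LCC replicate left out in turn, the new H3K27ac summits numbered 3 (without replicate 1) and 4 (without replicate 2) in TGFb, 5 and 2 in SO1 and 4 and 3 in H2030. The lost ones numbered 1 and 0 in TGFb, 0 in either case in SO1, and 6 of 20 and 3 of 18 in H2030.

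For H3K4me1, 2 of 50 summits were new in TGFb, against 2.32% in the genome, and 3 of 51 were lost, against 1.56%. In SO1, 2 of 46 were new, against 4.05%, and 2 of 51 were lost, against 7.04%. In H2030, 6 of 51 were new, against 16.7%, and 12 of 51 were lost, against 27.1%. The 3 summits lost in TGFb were 5.88% of those in the window, with an interval of 2.02% to 15.9% that lay just above the genome share, and it was the only one of the 20 calls whose interval did so. For H3K4me3 no summit of the window was called: 0 of 12 were new in TGFb (genome 0.0485%), 0 of 12 in SO1 (0.203%) and 0 of 10 in H2030 (2.83%), and 0 of 10 were lost in TGFb (0.0230%), in SO1 (0.138%) and in H2030 (4.81%). With 10 summits a count of 0 allows a share of up to 27.8% (upper Wilson bound), so a loss of the size seen genome-wide was not detectable at these numbers.

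One of the sites with a new H3K27ac summit, in TGFb and in SO1, also had an H3K27ac summit in H2030. The site at 1:153462830-153463917, at the border of the long H3K27ac-free stretch and the upper end, scored 31.2 in TGFb, 80.9 in SO1 and 13.1 in H2030. The nearest LCC H3K27ac summits lay 16171 bp and 16132 bp from the TGFb summit. H2030 did not count as called there because 13.1 is below the median of its list. H3K4me1 was already present in LCC, with a score of 27.1, and scored 40.9, 74.7 and 16.9 in TGFb, SO1 and H2030. The calls in TGFb and SO1 used the same LCC libraries, so they are no independent evidence of each other.

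The second new H3K27ac summit of TGFb, at 1:152490429, scored 42.6 and was found in TGFb only. The nearest LCC summits lay 76012 bp and 74345 bp away, and LCC carried H3K4me1 of 12.4 at the site. The second new summit of SO1, at 1:152725288, scored 60.4 and was found in SO1 only. LCC carried H3K4me1 of 9.58 there, and SO1 81.0. It lay with SO1 H3K27ac summits of 22.8 and 5.32 in the 100 kb from kb 152650, in which no other library had an H3K27ac summit. At both new sites, each of 1 condition, H3K4me1 was thus present in LCC without H3K27ac.

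The new H3K27ac summits of H2030, at 1:152155744 with a score of 30.9 and at 1:152140912 with 15.9, lay below the H3K4me3 site at 1:152161484 described above. The nearest H3K27ac summits of the LCC replicates lay 20830 bp and 20572 bp from the second. From the first they lay 5998 bp and 5740 bp away, little more than the limit of 5 kb. The first was near an H3K4me1 site that TGFb (18.4), SO1 (26.1) and H2030 (53.2) carried and LCC did not. That H3K4me1 summit was called new in all 3 comparisons. The 3 calls used the same single LCC library, so they are no independent evidence of each other. The nearest LCC H3K4me1 summit lay 6293 bp from the TGFb, 6757 bp from the SO1 and 6783 bp from the H2030 summit, not far beyond the limit of 5 kb. The H3K27ac summits lost in H2030 were at 1:153072669 in the middle stretch and at 1:153545425 at the upper end, where LCC scored 13.6 and 13.8 and H2030 kept H3K4me1 of 25.3. The nearest H2030 H3K27ac summit lay 23251 bp from the former and 6534 bp from the latter.

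Among H3K4me1 summits, the highest new one in SO1, at 1:153420411, scored 48.8 in SO1, with 6.55 in TGFb, 6.20 in H2030 and no LCC summit within 18242 bp. In TGFb the other new one, at 1:153204361, scored 16.9 and had no summit within 1 kb in any other library. The highest lost in TGFb, at 1:151953503, scored 36.8 in LCC and 32.5 in SO1. There TGFb also had no H3K27ac summit, while SO1 had 11.3 and H2030 51.6, against 2.76 and 13.8 in LCC. The 2 lost in SO1, at 1:152857105 (22.9 in LCC) and 1:152885046 (14.1), both lay in the middle stretch. The highest lost in H2030, at 1:153005944 (50.9 in LCC), lay there too, and the next, at 1:153319201, scored 45.9 in LCC, 19.8 in TGFb and 5.79 in SO1. Those at 1:152880592 (35.6 in LCC), 1:152927547 (30.7) and 1:153014337 (27.6) were again in the middle stretch. The new ones in H2030 after 1:152155367, at 1:151986330, 1:152116138, 1:153329984 and 1:153347981, scored 9.27 to 12.9.

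The share of LCC summits of the window found again in another condition had, for every mark and condition, a Wilson interval that held the genome share. Within 500 bp, TGFb had 73.9% ± 0.767 (SD over the 2 LCC replicates) of the LCC H3K27ac summits of the window, against 63.4% ± 1.36 over the genome. That gap was larger than the spread between the replicates, while the Wilson intervals of the window, 55.6% to 85.8% from replicate 1 and 59.8% to 85.1% from replicate 2, held the genome shares of 64.3% and 62.4%. SO1 had 57.2% ± 8.61, against 56.2% ± 4.14, and H2030 had 40.3% ± 4.33, against 34.8% ± 3.18. Replicate 2 had 76.7% of the replicate 1 summits, and replicate 1 had 53.5% of the replicate 2 summits, which spans the TGFb and SO1 shares and lies above the H2030 share. For H3K4me1 the shares were 65.1% in TGFb, 57.0% in SO1 and 32.6% in H2030, against 62.1%, 53.7% and 35.0% over the genome.

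For H3K4me3 they were 77.8% (14 of 18) in TGFb, 72.2% (13 of 18) in SO1 and 72.2% (13 of 18) in H2030, against 90.3%, 85.0% and 62.7% over the genome. Each Wilson interval of the window, 49.1% to 87.5% for the last, held its genome share. Of the H3K4me3 summits with a score of at least 10, 92.9% were found again in TGFb and 92.9% in SO1, so the summits not found again were mostly low.

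**Figure D4:**
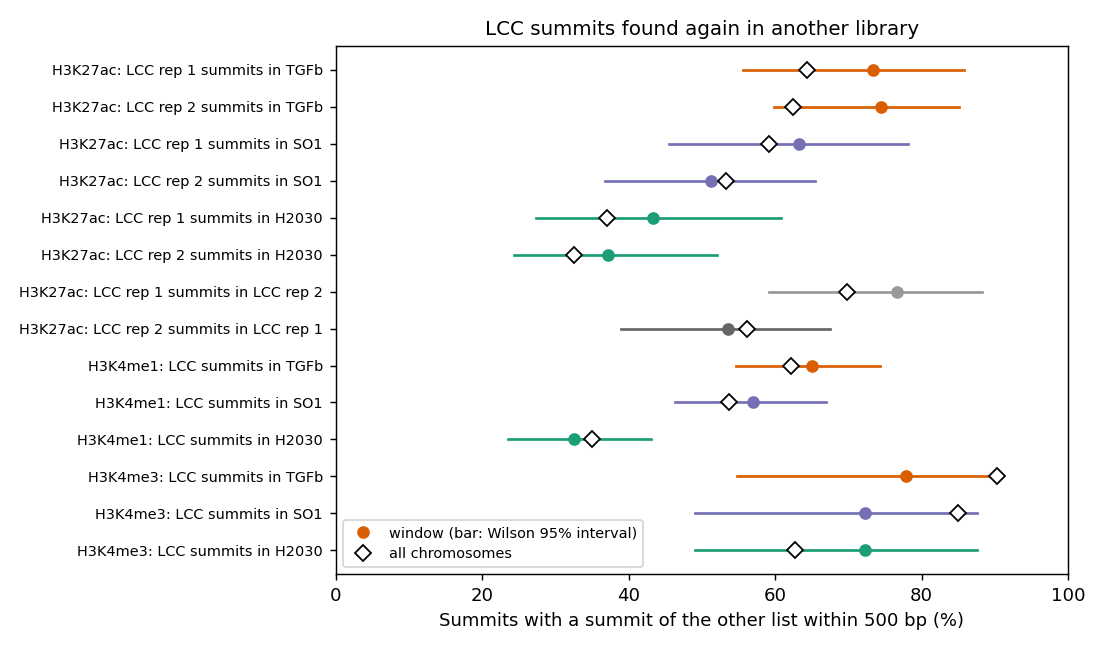
Share of LCC summits of the window with a summit of the named library within 500 bp (filled points, with Wilson 95% intervals as bars; x axis, percent) and the same share over all chromosomes (open diamonds), for each mark and LCC replicate (rows). Every bar covers its diamond, and the H2030 points for H3K27ac (43.3% and 37.2%) and H3K4me1 (32.6%) lie below those of TGFb and SO1.

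The combination of marks at H3K27ac summits was also close to that of the genome. In TGFb, 24.5% of the 49 H3K27ac summits had H3K4me3 within 1 kb, 57.1% had H3K4me1 without H3K4me3 and 18.4% had neither, against 32.3%, 55.8% and 11.9% over the genome. Within 2500 bp in place of 1 kb, 4.08% of the TGFb summits in the window had neither. In SO1 41.7% of 36 and in H2030 37.9% of 29 had H3K4me3, against 33.3% of 30 and 27.9% of 43 in the LCC replicates. Each of these intervals held the genome share. The enhancer-like combination of H3K27ac and H3K4me1 without H3K4me3 made up 50.0% in SO1 and 41.4% in H2030, against 60% and 62.8% in LCC. Over the genome it made up 51.4% in SO1 and 46.0% in H2030, against 48.3% and 52.8% in the LCC replicates. Each genome share lay within the Wilson interval of its window share, so no difference of the window is read from these values.

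Summits of H3K27ac joined across gaps of up to about 12 kb formed domains, and those of the most summits lay at the upper end in TGFb, SO1, H2030 and LCC replicate 2. In TGFb the domain at chr1:153479650-153548308, 68.7 kb long, joined 12 summits and ranked 209 of 30704 by number of summits. In SO1 the domain at chr1:153508227-153548479, 40.3 kb long, joined 9 and ranked 186 of 29298. In H2030 no domain of the window joined more than 4, which those at chr1:153508259-153521591 and chr1:153631289-153643221 did. In LCC replicate 2 the largest, chr1:153526650-153548488, joined 6, and in replicate 1 no domain of the window joined more than 3. The domain of LCC replicate 2 overlapped those of TGFb and SO1. The LCC replicates differed between themselves, and a single summit can join or part a domain. The second domain of TGFb, chr1:153570218-153606707, joined 8 summits over 36.5 kb, against 4 over 25.6 kb in LCC replicate 2 at chr1:153581138-153606713. In LCC replicate 1 a lone summit at chr1:153583214 lay apart from a domain of 2 summits at chr1:153599694-153606750.

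At the upper end, H2030 differed from the H2087 conditions at single sites. The site at 1:153598381-153600448 scored 535, 580 and 26.6 for H3K4me3 in TGFb, SO1 and H2030, against 428 in LCC. Its H3K27ac scored 400, 370 and 10.1, against 70.4 and 149 in the LCC replicates. At 1:153517334-153518170, H3K4me3 scored 364, 388 and 32.7 in TGFb, SO1 and H2030, against 275 in LCC, while H3K27ac scored 371, 307 and 207, against 115 in LCC replicate 1 and no summit at the site in replicate 2. Within the H2030 H3K4me3 list, whose median was 247, both sites thus lay below the median, and in each of the other 3 lists both exceeded the median.

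Between these, the site at 1:153537426-153538891 scored 276 and 295 for H3K4me3 in TGFb and SO1, above the medians of their lists, and had no H3K4me3 summit in H2030, against 81.4, below the median, in LCC. Close outside the site, at 1:153540947, H2030 had an H3K4me3 summit of 73.2, also below its median. The uppermost sites did not share this pattern. At 1:153630711-153632398, H3K4me3 scored 558, 533 and 504 in TGFb, SO1 and H2030, against 439 in LCC, and at 1:153642092-153645140 it scored 648, 574 and 497, against 507. In these lists both sites were above the median in every condition. The site at 1:153585223-153586112, the highest H3K4me3 site of the window in SO1 with 695, scored 546 in TGFb and 265 in H2030, against 495 in LCC. H3K27ac at this site was found in H2030 only, with 128, while the H2087 conditions had H3K27ac summits of 482 (TGFb, 1:153581099), 493 (SO1, 1:153583250) and, in the LCC replicates, 123 (1:153583214) and 255 (1:153581138) a few kb lower.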

How the data were processed

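Per the submitters' processing notes, reads were handled with Bowtie2, SAMtools and deepTools on hg19, with no versions stated. No source used here names the peak caller. The authors deposited 1 list per library of 1-base summits with a score on a −log10 scale. Whether it is of p or q is not stated, and the lowest score of any list, 1.30107, lies just above the negative log10 of 0.05. Per the peak names in the files, each list holds calls of a single library. Read depth and peak widths are unknown, and 13 of the 18 samples had a list. Summits on other sequences than chromosomes 1 to 22 and X were left out.

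Distances, counts and Wilson 95% intervals were computed with Python 3.11.15, pandas 2.3.3 and numpy 2.4.6. The rule for new and lost summits was run on simulated lists whose planted changes lay beyond its limit of 5 kb. Their recovery was set in advance by that distance and gives no error rate of the calls. The rule for named sites took, per comparison and mark, the 5 highest new and lost summits, per library the 5 highest summits and up to 3 H3K27ac domains, not all of which are printed. Other sites were chosen after their values were seen. The window, the lists and the rules were chosen with earlier results of these data known. Alternatives were other distances, score limits, list lengths and each LCC replicate alone.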

Additional observations from a re-analysis of the deposited data

How the results depend on the processing

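No paired analysis was possible because TGFb, SO1 and H2030 have 1 library per mark and no result comes from a test. The alternative values were compared by size only, and their direction against the genome was not computed. For H3K27ac in SO1, the share from LCC replicate 1 lay above the genome share (63.3%, against 59.1%). From replicate 2 it lay below (51.2%, against 53.3%). Of 33 alternative values for the share of LCC summits found again, 24 stayed within the spread and 9 moved. For H3K27ac the spread was the mean ± SD of the 2 LCC replicates, 73.1% to 74.6% in TGFb. For H3K4me1 and H3K4me3 it was the Wilson interval, 54.6% to 74.3% for H3K4me1 in TGFb, so the counts mix unlike limits. Leaving out an LCC replicate gives the value of the other alone. That value lies within the mean ± SD by construction, so its staying there was no test. For H3K27ac in TGFb the share was 64.2% within 250 bp, 79.5% with scores of at least 10 and 69.9% at equal list lengths. In SO1 it was 78.0% with scores of at least 10, and in H2030 33.4% within 250 bp and 46.5% with scores of at least 10. For H3K4me1 in TGFb it was 51.2% within 250 bp, and for H3K4me3 92.9% in TGFb and 92.9% in SO1 with scores of at least 10. Leaving out an LCC replicate gave 73.3% to 74.4% in TGFb, 51.2% to 63.3% in SO1 and 37.2% to 43.3% in H2030.

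Counts of new and lost summits were small and depended on the definition: 20 of 33 values for new and 17 of 33 for lost summits moved by over 1.5 times. With no score condition, the new summits in TGFb, SO1 and H2030 numbered 4, 6 and 5 for H3K27ac, 7, 5 and 14 for H3K4me1 and 2, 3 and 4 for H3K4me3. The lost ones numbered 1, 4 and 9, then 9, 12 and 31, then 1, 2 and 2. With 1 kb in place of 5 kb, the new H3K27ac summits numbered 4 in SO1 and 5 in H2030, the new H3K4me1 summits 6, 4 and 20 and the lost ones 9, 9 and 24. With 10 kb, 1 H3K27ac summit was new and 1 lost in H2030, and 0 H3K4me1 summits were new and 1 lost in TGFb, and 1 new and 1 lost in SO1. Leaving out an LCC replicate gave 3 to 4 new and 0 to 1 lost H3K27ac summits in TGFb, 2 to 5 new and in either case 0 lost in SO1, and 3 to 4 new and 3 to 6 lost in H2030. Without replicate 1, the LCC summits tested for loss were all strong replicate 2 summits.

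Within 2500 bp, 4.08% of TGFb and 0% of LCC replicate 1 H3K27ac summits had neither other mark, and 13 of 15 such shares stayed within their intervals. From kb 152850 to kb 153150, settings added after seeing the data gave 9 H3K27ac summits in TGFb, 0 in H2030 and a mean of 4.50 in LCC with scores of at least 10. Leaving out an LCC replicate gave 9 to 13 in LCC. The cause of these shifts was not tested beyond what a narrower distance or a score limit removes. Fewer than 20 summits per list limit every H3K4me3 share, and depth and peak width are unknown.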

Other observations

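Most H3K4me3 summits in the middle of the window were low within their lists. The site at 1:152717705-152718339 scored 3.76 in TGFb and 9.74 in SO1, and that at 1:153071617-153072940 scored 3.57 in TGFb and 8.37 in SO1. Others were found at 1:152169555 (9.16), 1:152433995-152434002 (10.7) and 1:153195919-153196106 (7.24) in H2030, at 1:153379707-153380122 in TGFb (8.95) and LCC (5.00), and at 1:153113633-153114130 in LCC (4.52). All of these lie far below the medians of their lists, which were 147, 183 and 247 in TGFb, SO1 and H2030, against 189 in LCC.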
